A study of Mus musculus with 12 samples.

Results

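Fibroblast, leptomeningeal and vascular transcripts were followed in cultures of cerebellar granule cells, the small neurons of the cerebellar cortex. The set comprised 33 genes, among 18193 genes that had a probe set annotated to 1 symbol alone, and each gene was represented by the probe set with its highest mean over the 12 arrays. The cultures came from mice at postnatal day 7, lethargic on the 129/SvJ background by the samples' own strain label, while the shared culture protocol also names BALB/c. All groups, the control included, share the lethargic mutation of Cacnb4, which encodes a β subunit (β4) of calcium channels opened by voltage. Lentiviral constructs were applied for 12 hours right after plating. The control carried eGFP and the others 1 splice variant each (β4a, β4b, β4e), with a prefix that the labels write as βA and do not spell out. The medium held 10% serum, the antimitotic Ara-C was added 24 hours after plating, and RNA was taken after 9 days in vitro. The 12 arrays made 4 groups of 3, and the titles numbered the arrays of every group 1 to 3. Wild-type or uninfected cultures were not analysed here.

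Fibroblasts build the connective tissue around the brain. In the leptomeninges, which wrap the cerebellum and can be carried into a dissection, they secrete fibrillar collagens, small leucine-rich proteoglycans such as decorin and lumican, and the enzymes that cross-link collagen. Mural cells, that is pericytes and smooth muscle cells, and endothelial cells form the vessels. Several of the genes are not exclusive to these cells: Sparc, Fn1, Serpinf1 and Igfbp2 are also made by glia, and Ptgds by oligodendrocytes.

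Each value is a log2 intensity from the deposited table, and levels below 4 were taken as near background. Arrays of bulk cultures cannot tell fewer cells of a type from less RNA per cell. Levels of different genes come from different probes and were not set against each other.

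As a check of the label, granule cell markers were high throughout. Their 13 genes averaged 11.76 to 12.12 in an array, and 0 of them were below 4 in all arrays. Gabra6, a GABA receptor gene that granule cells switch on as they mature, ranged between 13.58 and 14.02. Arrays that shared a replicate number resembled each other (r of their deviations from group means, 0.699 to 0.884 over 18 pairs). The labels do not say what a number stands for. Arrays of 1 number may share a culture, so that p-values between numbers measure the spread between arrays.

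Many of the fibroblast and vascular genes were near background, and most of the others differed by replicate number. Of the 33 genes, 10 were below 4 in all 12 arrays, 12 were above 4 in all 12, and 11 were above 4 in some. An array had 12 to 19 of them below 4, which is 36.4% to 57.6%, against 51.8% to 53.0% of all probe sets. The filter for testing, above 4 in at least 3 arrays, was passed by 20 genes (60.6%), against 51.2% of all probe sets. Col1a1, Lum and Col6a2 passed it mainly through the arrays of number 1, and Igf2 mainly through those of number 3. A difference of theirs between numbers was therefore partly built in by the filter.

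**Figure D1:**
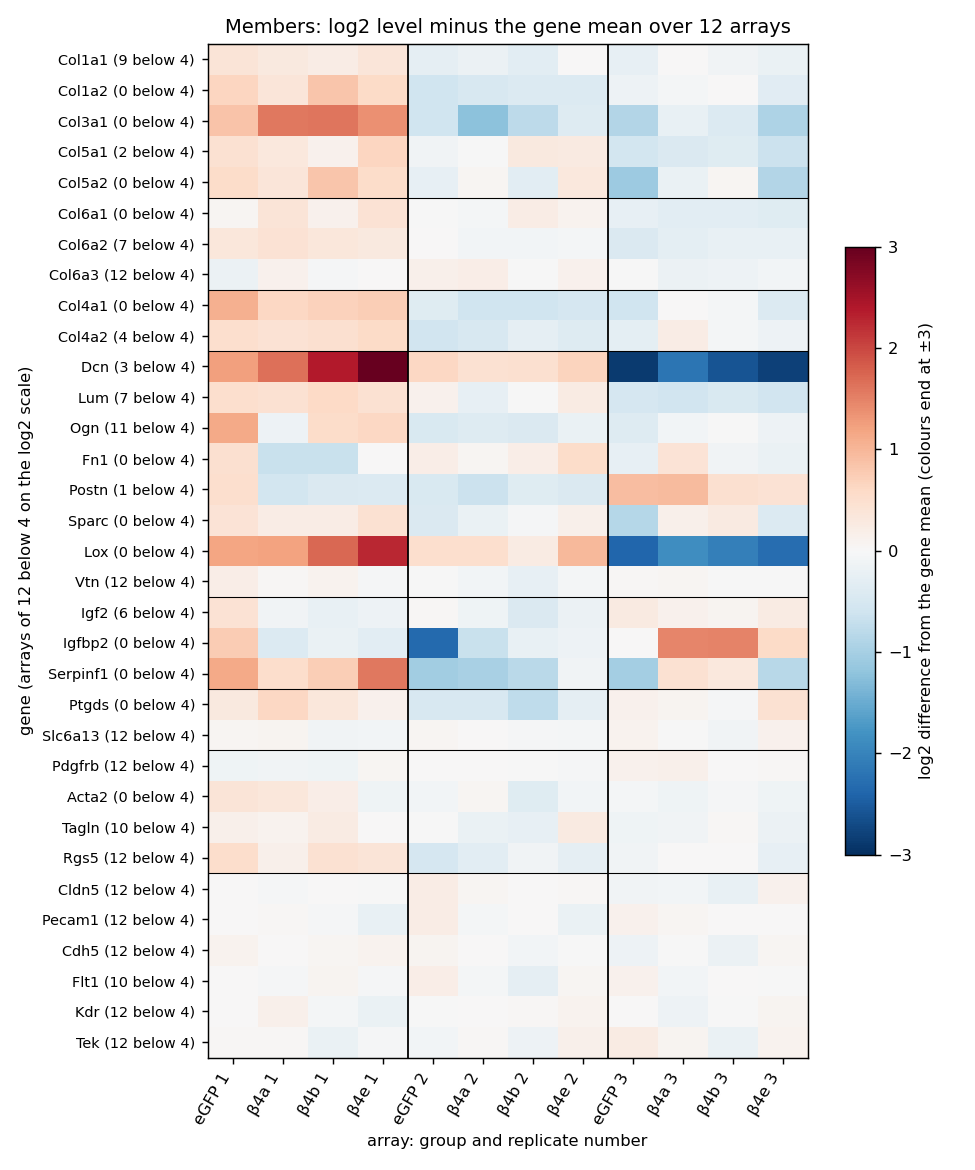
Colour gives the log2 level of each of the 33 genes minus that gene's mean over 12 arrays, with arrays ordered by replicate number and genes by role. The brackets give how many of the 12 arrays were below 4. Dcn and Lox show the strongest colours, red in number 1 and blue in number 3, while the endothelial rows at the bottom are almost blank.

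Promoter sequences are shown for 3 genes whose levels separated the replicate numbers in different ways: Col3a1 and Col1a2, higher in number 1, and Postn, higher in number 3. They are the 250 bases before the RefSeq start on GRCm38.p6, plus strand, at chr1:45311288-45311537 for Col3a1, chr6:4505368-4505617 for Col1a2 and chr3:54359017-54359266 for Postn (the more upstream of its starts). Capitals mark matches to the CCAAT box, the letters TATAAA of the TATA box, the GC box GGGCGG and the AP-1 site TGANTCA, each searched on both strands.
Col3a1: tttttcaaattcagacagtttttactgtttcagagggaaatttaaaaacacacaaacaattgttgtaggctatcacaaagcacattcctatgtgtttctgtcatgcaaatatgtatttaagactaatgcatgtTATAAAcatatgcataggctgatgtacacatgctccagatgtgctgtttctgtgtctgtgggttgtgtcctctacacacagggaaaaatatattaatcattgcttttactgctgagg
Col1a2: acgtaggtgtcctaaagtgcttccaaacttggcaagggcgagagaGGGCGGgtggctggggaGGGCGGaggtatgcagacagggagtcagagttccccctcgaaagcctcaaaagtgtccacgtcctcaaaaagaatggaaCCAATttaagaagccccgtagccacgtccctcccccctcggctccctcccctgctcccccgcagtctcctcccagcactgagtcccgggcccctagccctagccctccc
Postn: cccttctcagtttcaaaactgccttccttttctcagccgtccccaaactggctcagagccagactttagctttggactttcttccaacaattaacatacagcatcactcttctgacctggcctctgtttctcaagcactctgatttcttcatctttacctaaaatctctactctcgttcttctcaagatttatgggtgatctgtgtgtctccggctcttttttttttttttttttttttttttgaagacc

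The Col3a1 window held TATAAA 117 bases before the start. That of Col1a2 held CCAAT 109 bases before it and GC boxes at 205 and 188. In the printed Postn window these letters had 0 matches, while the window of its other RefSeq start, not printed, held TATAAA 26 bases before that start. A match or its absence says nothing about the factors. Over the 31 windows of the 23 genes with a RefSeq entry, CCAAT was in 25.8%, against 33.8% of all 32851 windows of the same length. The shares were 16.1% against 12.4% for TATAAA, 38.7% against 32.7% for the GC box and 9.68% against 6.75% for the AP-1 site. Col4a1 and Col4a2, the basement membrane pair, are read in opposite directions from adjoining starts. Their full RefSeq entries, which are longer than the windows searched here, share 78 bases.

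Of the 5 fibrillar collagen genes, 4 were higher in number 1 than in number 2 and 5 were higher than in number 3 by limma. Over all 23044 probe sets tested, 29% and 28.5% were higher (53.2% and 48.2% called in either direction). Col1a1 is in both counts, and all 3 of its arrays above 4 are of number 1, so it passed the filter through the number where it is high. Col3a1 encodes the chain of type III collagen, a soft-tissue fibril of meninges and vessel walls. Arrays are given in the order eGFP, β4a, β4b, β4e. The level of Col3a1 was 7.19, 7.92, 7.95 and 7.72 in number 1, 5.74, 5.12, 5.55 and 5.95 in number 2, and 5.46, 6.11, 5.93 and 5.41 in number 3. All 4 arrays of number 1 lay above the other 8, which overlapped. Col3a1 was 4.31-fold higher in number 1 than in number 2 (log2 difference 2.11 ± 0.23 SE, limma adjusted p = 7.75e-05) and 3.91-fold higher than in number 3 (1.97 ± 0.23, adjusted p = 1.57e-04). A second probe set of Col3a1 was below 4 in all arrays.

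Type I collagen, the main fibril of fibroblasts, is built from the chains of Col1a1 and Col1a2. Col1a2 had 5.71, 5.42, 5.89 and 5.63 in number 1 (eGFP, β4a, β4b, β4e), 4.46, 4.57, 4.64 and 4.65 in number 2, and 4.89, 5.00, 5.07 and 4.72 in number 3. The 3 numbers did not overlap in this gene. It was 2.12-fold higher in number 1 than in number 2 (1.08 ± 0.10, limma adjusted p = 3.97e-05) and 1.67-fold higher than in number 3 (0.74 ± 0.10, adjusted p = 4.37e-04). It was lower in number 2 than in number 3 (-0.34 ± 0.10, adjusted p = 0.0326), a call that held in 6 of 12 fits with 1 array left out. Col1a1 averaged 4.10 ± 0.08 (SD, n = 4 arrays) in number 1, 3.59 ± 0.15 in number 2 and 3.64 ± 0.11 in number 3, close to background in every array.

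Col5a1 and Col5a2, chains of the type V collagen that starts fibrils, were lowest in number 3 by their means. Col5a2 stood at 6.81, 6.63, 7.09 and 6.81 in number 1, at 6.03, 6.33, 5.94 and 6.58 in number 2, and at 5.17, 6.05, 6.33 and 5.38 in number 3. Numbers 2 and 3 overlapped, and their difference (0.49, limma adjusted p = 0.141) did not pass. Number 1 exceeded number 3 by 1.10 ± 0.23 for Col5a2 (limma adjusted p = 0.00392) and by 0.89 ± 0.14 for Col5a1 (adjusted p = 6.78e-04). The difference of Col5a2 between numbers 1 and 2 (0.62, adjusted p = 0.0482) passed in 5 of 12 fits with 1 array left out, in which it ran from 0.38 to 0.80. A second Col5a2 probe set gave 0.36 for number 1 minus 2 and 0.58 for number 1 minus 3 (limma adjusted p = 0.0338 and 0.00370). For Col5a1 number 2 exceeded number 3 by 0.61 ± 0.14 (limma adjusted p = 0.00881), a difference of 0.23 on a second probe set that did not pass there (adjusted p = 0.0910). Numbers 1 and 2 overlapped for Col5a1, and their difference (0.28, adjusted p = 0.107) did not pass.

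Collagen VI forms beaded microfibrils around cells. Col6a1 stood at 4.50, 4.83, 4.59 and 4.88 in number 1, at 4.45, 4.39, 4.68 and 4.56 in number 2, and at 4.20, 4.14, 4.15 and 4.08 in number 3. Col6a2 stood at 4.37, 4.47, 4.39 and 4.33, at 4.04, 3.95, 3.96 and 3.97, and at 3.60, 3.74, 3.81 and 3.81. Numbers 1 and 2 overlapped in Col6a1, and no numbers overlapped in Col6a2. Both exceeded number 3 in number 1 (0.56 and 0.65, limma adjusted p = 0.00229 and 2.09e-04). Col6a2 passed the filter mainly through the arrays of number 1, so its difference was partly built in by the filter. Tested with no filter, it had a limma adjusted p = 1.39e-04. Col6a3 was below 4 in all arrays (3.12 to 3.48).

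Type IV collagen is the network of basement membranes, made by endothelium, mural cells and glia. Col4a1 stood at 6.48, 6.03, 6.10 and 6.14 in number 1, at 5.04, 4.81, 4.82 and 4.90 in number 2, and at 4.82, 5.42, 5.34 and 4.99 in number 3. Again the arrays of number 1 were the highest and the other numbers overlapped. The excess was 1.29 ± 0.16 over number 2 (limma adjusted p = 1.40e-04) and 1.04 ± 0.16 over number 3 (adjusted p = 6.33e-04). On a second Col4a1 probe set the excess was smaller, 0.54 and 0.53 (limma adjusted p = 0.00651 and 0.00877). The partner gene Col4a2 stood at 4.77, 4.71, 4.77 and 4.84 in number 1, at 3.71, 3.81, 4.01 and 3.89 in number 2, and at 3.98, 4.50, 4.21 and 4.13 in number 3. Here too number 1 lay above the other arrays, with an excess of 0.92 over number 2 and 0.57 over number 3 (limma adjusted p = 1.11e-04 and 0.00217).

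The widest separation was in decorin and lysyl oxidase. Dcn encodes decorin, a small proteoglycan that coats collagen fibrils and is a standard fibroblast marker. It stood at 7.59, 8.02, 8.73 and 9.34 in number 1 (eGFP, β4a, β4b, β4e), at 6.97, 6.81, 6.85 and 7.03 in number 2, and at 3.49, 4.18, 3.78 and 3.56 in number 3. The numbers did not overlap, and 3 arrays of number 3 were below 4. Number 1 exceeded number 3 by 4.67 ± 0.29 (limma adjusted p = 8.62e-06), a 25.5-fold difference that is not exact because number 3 lay at background. Number 2 exceeded number 3 by 3.16 ± 0.29 (8.96-fold, adjusted p = 1.30e-04), and number 1 exceeded number 2 by 1.51 ± 0.29 (2.84-fold, adjusted p = 0.00196). A second Dcn probe set was below 4 in all arrays.

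Lox encodes lysyl oxidase, which oxidises lysines of collagen and elastin so that fibres cross-link. It stood at 8.61, 8.63, 9.15 and 9.68 in number 1, at 7.94, 7.94, 7.67 and 8.40 in number 2, and at 5.05, 5.55, 5.37 and 5.15 in number 3. The order was that of Dcn, again without overlap. Number 1 exceeded number 3 by 3.74 ± 0.21 (13.4-fold, limma adjusted p = 6.07e-06), and number 2 exceeded number 3 by 2.71 ± 0.21 (6.53-fold, adjusted p = 5.87e-05). The difference between numbers 1 and 2 was 1.03 ± 0.21 (2.04-fold, adjusted p = 0.00259). A second Lox probe set gave 3.52 for number 1 minus 3, 1.91 for number 2 minus 3 and 1.62 for number 1 minus 2. In number 3 this probe set lay at background (3.61, 4.01, 3.75 and 3.25), so its differences from number 3 are not exact.

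Lum, the proteoglycan lumican, followed the same order at the edge of background. It stood at 4.26, 4.22, 4.36 and 4.23 in number 1, at 3.89, 3.53, 3.75 and 4.02 in number 2, and at 3.25, 3.20, 3.32 and 3.19 in number 3, without overlap. Its difference between numbers 1 and 3 was 1.03 ± 0.10 (limma adjusted p = 5.29e-05). Lum passed the filter mainly through the arrays of number 1, so this difference was partly built in by the filter. Tested with no filter, it had a limma adjusted p = 3.44e-05. Ogn, the related osteoglycin, did not pass the filter. It was above 4 only with eGFP in number 1 (4.40), where the other arrays had 3.12, 3.81 and 3.88, and it ran from 2.80 to 3.25 in numbers 2 and 3.

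**Figure D2:**
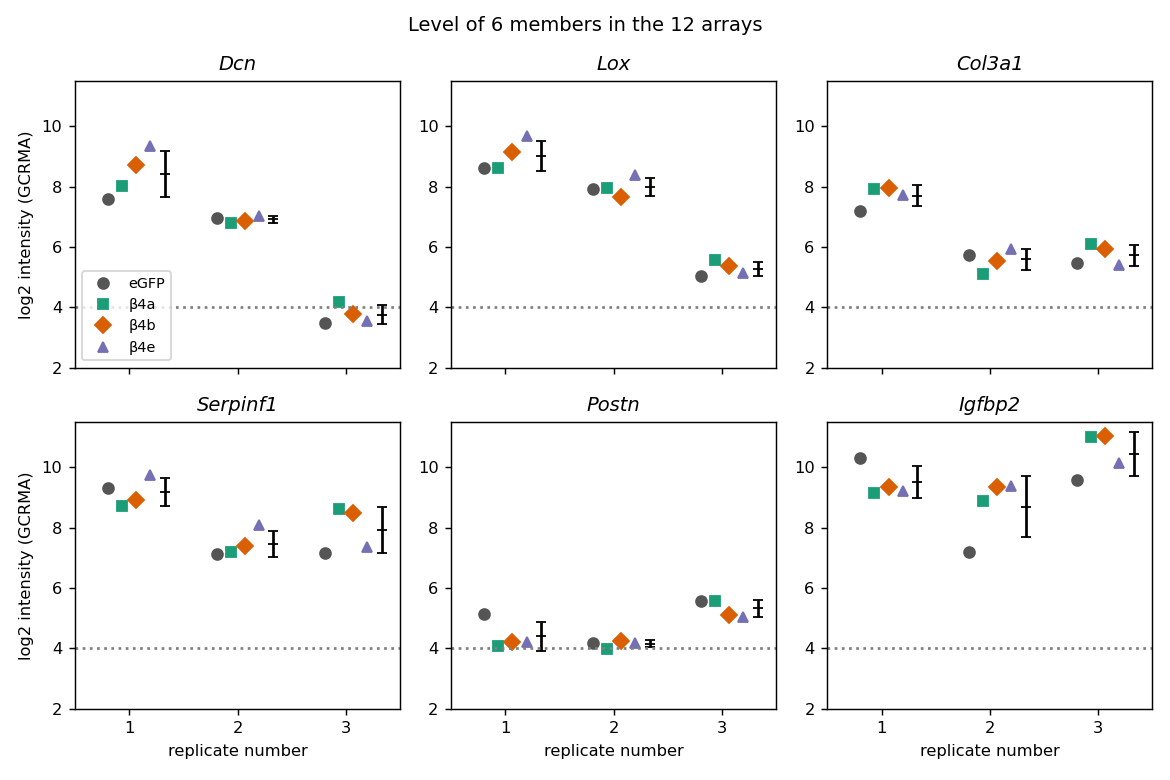
Log2 level of 6 genes (vertical axis) in each array, grouped by replicate number (horizontal axis), with a symbol per group, the mean ± SD of the 4 arrays of a number in black and a dotted line at 4. Dcn and Lox fall from number 1 to 2 to 3, Col3a1 and Serpinf1 are highest in number 1 by their means, and Postn and Igfbp2 are highest in number 3 by theirs.

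Periostin went against this order. Postn, a matricellular protein of activated fibroblasts and developing connective tissue, stood at 5.13, 4.08, 4.20 and 4.21 in number 1 (eGFP, β4a, β4b, β4e), at 4.18, 3.98, 4.26 and 4.20 in number 2 and at 5.56, 5.57, 5.11 and 5.06 in number 3. The eGFP array of number 1 lay within the range of number 3 and apart from the other 7 arrays of numbers 1 and 2. Number 3 exceeded number 2 by 1.17 (limma adjusted p = 0.00158) and number 1 by 0.92 (adjusted p = 0.00292), 2.25-fold and 1.89-fold. Without the eGFP array of number 1 the latter was 1.12.

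Fibronectin and SPARC, which glia also make, varied more within numbers. Fn1 stood at 10.13, 8.99, 8.98 and 9.68 in number 1, at 9.84, 9.70, 9.84 and 10.20 in number 2, and at 9.41, 10.07, 9.54 and 9.45 in number 3. The numbers overlapped, and 0 of their differences passed on this probe set (limma adjusted p = 0.160, 0.595 and 0.435). A second Fn1 probe set lay at the edge of background, between 3.47 and 4.24, and below 4 in every array of number 1. It was lower in number 1 than in number 2 (-0.45) and number 3 (-0.42). This probe set passed the filter only through arrays of numbers 2 and 3. These differences were therefore partly built in by the filter, and no test of it is given. The first probe set passed for number 1 minus 2 without the eGFP array of number 1, and the mean of both passed with all arrays. Sparc, a collagen-binding glycoprotein, stood at 13.20, 13.02, 13.01 and 13.26 in number 1, at 12.36, 12.58, 12.76 and 12.95 in number 2, and at 11.94, 12.95, 13.07 and 12.38 in number 3. Numbers 1 and 3 overlapped, and their difference (0.54, limma adjusted p = 0.0549) did not pass. It did pass with median centring, with a trended robust variance, and in 3 of 12 fits with 1 array left out (those without β4a replicate 3, β4b replicate 1 or β4b replicate 3). On a second Sparc probe set this difference was 0.46 and did not pass (limma adjusted p = 0.187). Vtn, vitronectin, which brain pericytes make, was below 4 in all arrays (2.50 to 2.94).

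Among secreted factors, Serpinf1 encodes PEDF, a serpin that restrains vessel growth. It stood at 9.32, 8.72, 8.91 and 9.76 in number 1, at 7.13, 7.20, 7.38 and 8.07 in number 2, and at 7.17, 8.63, 8.50 and 7.36 in number 3. In number 3 the eGFP and β4e arrays were low and the β4a and β4b arrays nearly reached number 1. The excess of number 1 was 3.32-fold over number 2 (1.73 ± 0.37, limma adjusted p = 0.00342) and 2.40-fold over number 3 (1.26 ± 0.37, adjusted p = 0.0185). The latter call ended when replicate 1 or 3 of eGFP or of β4e was left out (0.88 to 1.62 over all 12 such fits, adjusted p up to 0.0667). A second probe set differed by 0.37 and 0.24 and did not pass (adjusted p = 0.0772 and 0.249).

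Igfbp2 binds insulin-like growth factors and is abundant in meninges, choroid plexus and astrocytes. It stood at 10.30, 9.15, 9.35 and 9.23 in number 1, at 7.21, 8.87, 9.33 and 9.39 in number 2, and at 9.57, 11.01, 11.05 and 10.13 in number 3. The eGFP array of number 2 was the lowest of the 12. Number 3 exceeded number 2 by 1.74 (3.34-fold, limma adjusted p = 0.0220), but the call ended without eGFP replicate 2, β4a replicate 2, β4a replicate 3 or β4b replicate 3, with 1.25 as the smallest difference. Without the eGFP array of number 1, Igfbp2 also passed for number 3 over number 1 (1.59, adjusted p = 0.00148).

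Igf2, the growth factor, lay at the edge of background, with 4.48, 3.94, 3.82 and 3.89 in number 1, 4.06, 3.90, 3.60 and 3.86 in number 2 and 4.30, 4.17, 4.11 and 4.28 in number 3. Number 3 exceeded number 2 by 0.36 (limma adjusted p = 0.0242), a call kept in 6 of 12 fits with 1 array left out. Igf2 passed the filter mainly through the arrays of number 3, so this difference was partly built in by the filter. Tested with no filter, it also passed (limma adjusted p = 0.0269).

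Of the leptomeningeal markers, Ptgds, the prostaglandin D synthase of arachnoid cells, stood at 6.30, 6.62, 6.35 and 6.15 in number 1, at 5.53, 5.52, 5.25 and 5.74 in number 2, and at 6.14, 6.10, 5.97 and 6.46 in number 3. Number 2 lay below the other arrays, which overlapped. Number 2 was lower than number 1 by 0.84 and than number 3 by 0.66 (limma adjusted p = 6.11e-04 and 0.00536). On a second Ptgds probe set these differences were 0.66 and 0.37, and the latter did not pass (adjusted p = 0.00223 and 0.0548). Slc6a13, a GABA transporter of leptomeningeal fibroblasts, was below 4 in all arrays (2.80 to 3.03).

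Mural and contractile genes gave little signal. Acta2, smooth muscle actin, was read on a probe set whose suffix says that it can match other transcripts. It stood at 6.25, 6.20, 6.05 and 5.73 in number 1, at 5.78, 5.92, 5.48 and 5.77 in number 2, and at 5.79, 5.72, 5.81 and 5.73 in number 3. The numbers overlapped, and number 1 exceeded number 2 by 0.32 (limma adjusted p = 0.0407, kept in 4 of 12 fits with 1 array left out). Tagln, an actin-binding protein of smooth muscle, ran from 3.54 to 4.06, and the pericyte gene Rgs5 was below 4 in all arrays. Pdgfrb, the PDGF receptor that defines mural cells and fibroblasts, was below 4 in all arrays (3.56 to 3.84) by its probe set with the higher mean. Its other probe set, singled out after its values were seen, stood at 4.22, 4.54, 4.61 and 4.44 in number 1 and between 2.55 and 3.27 elsewhere. It passed the filter only through the arrays of number 1, and no test of it is given.

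None of the 6 endothelial genes passed the filter. Cldn5 of the blood-brain barrier junction, Pecam1, the cadherin Cdh5 and the receptors Kdr and Tek were below 4 in all 12 arrays. Flt1, a receptor of VEGF, was above 4 in 2 arrays and reached 4.08.

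Set against the background, differences between replicate numbers were common everywhere. For number 1 minus 2, 13 of the 20 genes above the filter were higher and 0 lower by limma, where 29% of all 23044 probe sets were higher and 24.2% lower (53.2% in all). For number 1 minus 3, 13 were higher and 1, Postn, was lower, against 28.5% and 19.8% (48.2% in all). For number 2 minus 3, 6 were higher and 6 lower, against 16.7% and 15.7% (32.3% in all), and 6 passed in total when eGFP replicate 2, β4a replicate 3 or β4b replicate 3 was left out. With no filter, all 33 genes entered. Then 14 were higher and 0 lower for number 1 minus 2, against 16.9% and 15.6% of 45037 probe sets (32.5% in all), and 15 were higher and 1 lower for number 1 minus 3, against 16.3% and 13.3% (29.6% in all). For number 2 minus 3 these counts were 5 and 6, against 8.85% and 8.63% (17.5% in all). Ogn and Rgs5, which were below the filter, were among those higher in number 1. The median differences of the 33 genes were 0.32, 0.30 and -0.03, and those of all probe sets -0.02, 0.01 and 0.01. The median gene of the 20 had 82.4% of its sum of squares between replicate numbers (23.3% for Fn1 to 96.1% for Lox) and 4.12% between the 4 groups.

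**Figure D3:**
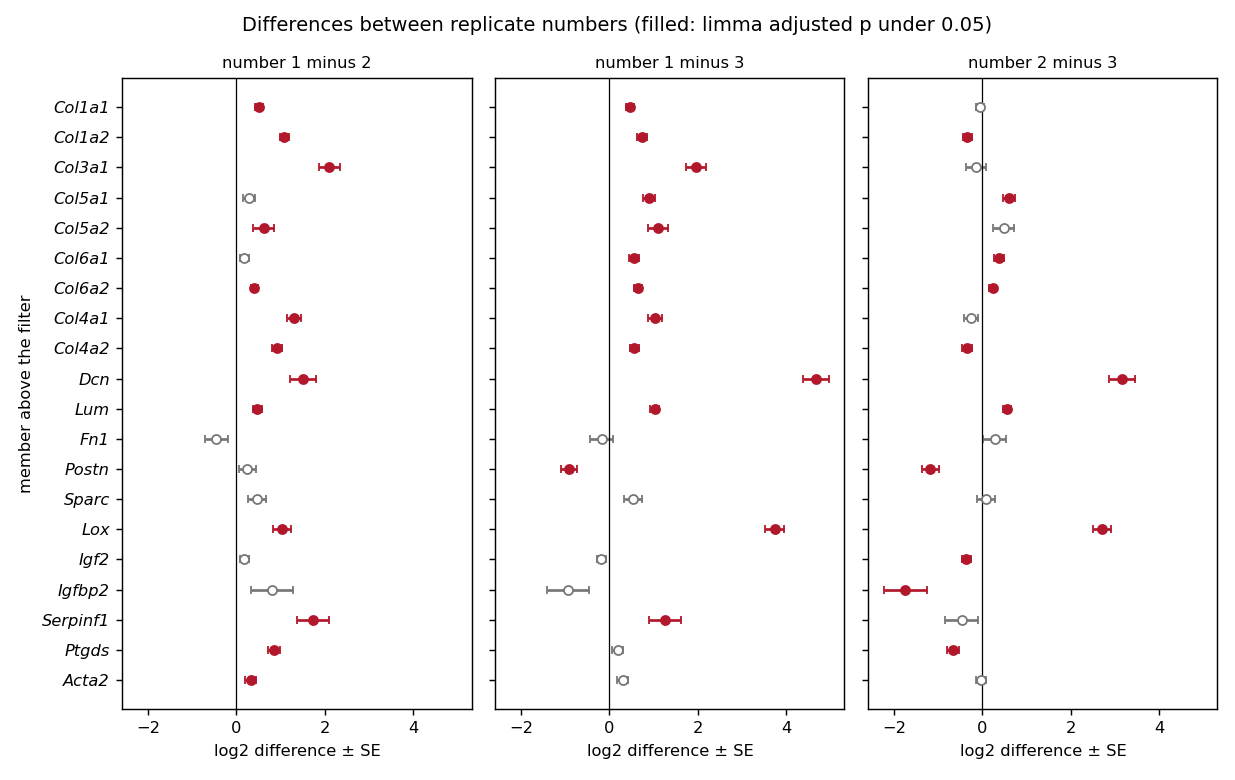
Log2 difference ± SE between replicate numbers (horizontal axis) for the 20 genes above the filter (rows), with filled red points where the limma adjusted p was under 0.05. Filled points in the left and middle panels lie to the right of 0 except for Postn, and in the right panel they lie on both sides, 6 and 6.

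Genes of the same tissues outside the set were listed from general knowledge, with earlier results of these data known. Their counts stand against 29% higher and 24.2% lower over all probe sets for number 1 minus 2, 28.5% and 19.8% for 1 minus 3, and 16.7% and 15.7% for 2 minus 3. Of 47 further fibroblast and matrix genes with a probe set, 37 passed the filter. Of these, 21 were higher and 3 lower in number 1 than in number 2 by limma, and 17 and 4 against number 3. Between numbers 2 and 3, 7 were higher and 11 lower. The protease inhibitor Timp1 averaged 7.92 ± 0.25, 6.56 ± 0.13 and 5.64 ± 0.61 in numbers 1, 2 and 3, in the order of Dcn. Timp3 averaged 9.14 ± 0.26, 7.01 ± 0.50 and 7.92 ± 0.55.

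Of 25 further meningeal genes, 19 were below 4 in all arrays and 5 passed the filter. Of these, 2 were higher and 2 lower in number 1 than in number 2, 2 and 1 against number 3, and 1 and 1 between numbers 2 and 3. The chemokine Cxcl12 averaged 8.27 ± 0.76, 4.91 ± 0.13 and 6.96 ± 0.45, and Islr, a mesenchymal surface protein, 7.56 ± 0.10, 5.95 ± 0.60 and 5.55 ± 0.69. Number 1 exceeded number 2 by 3.37 for Cxcl12 and by 1.61 for Islr (limma adjusted p = 3.30e-05 and 4.45e-04). The lower ones, named after their values were seen, were the transporter gene Slc16a11 (-0.60) and the ligand gene Wnt6 (-0.55).

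Of 22 further mural genes, 14 were below 4 in all arrays. Among the 8 above the filter, 4 were higher and 1 lower in number 1 than in number 2, and 6 and 0 against number 3. Mcam averaged 5.10 ± 0.23, 3.73 ± 0.35 and 3.88 ± 0.29, and the actin regulator Cald1 11.16 ± 0.03, 10.77 ± 0.10 and 10.27 ± 0.12. Mcam averaged below 4 in numbers 2 and 3, so it passed the filter mainly through number 1. Its difference was therefore partly built in by the filter, and the counts of the further lists can carry the same limit. Of 24 further endothelial genes, 16 were below 4 in all arrays and 7 passed the filter. Of these, 3 were higher and 0 lower in number 1 than in number 2, 2 and 1 against number 3, and 0 and 3 between numbers 2 and 3. Plvap, a protein of fenestrated endothelium, averaged 5.81 ± 0.14, 4.39 ± 0.14 and 4.99 ± 0.18. Aplnr, the apelin receptor, averaged 6.27 ± 0.57, 4.94 ± 0.57 and 6.77 ± 1.04.

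Among 28 ligands and receptors of the TGF-beta, IGF, PDGF and VEGF families, 23 passed the filter. Here 10 were higher and 3 lower in number 1 than in number 2, 7 and 2 against number 3, and 4 and 7 between numbers 2 and 3. The shares higher for 1 minus 3 and for 2 minus 3 are near those of all probe sets. Pdgfc, a PDGF ligand, was high in number 2 alone (9.92 ± 0.44, against 6.42 ± 0.18 and 6.49 ± 0.56 in numbers 1 and 3). Igfbp7, which is made by vessels and mesenchyme, averaged 12.04 ± 0.35 and 11.47 ± 0.18 in numbers 1 and 2 and 8.98 ± 0.61 in number 3. Its difference between numbers 1 and 3 was 3.06 (limma adjusted p = 3.57e-05).

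Some markers of other cell types also differed by number, and their part in these results was not tested. Of 11 oligodendrocyte lineage genes above the filter, 8 were higher in number 1 than in number 2 and 9 than in number 3, with 0 lower. Over all probe sets 29% and 28.5% were higher, and 24.2% and 19.8% lower. Mog, a myelin protein gene, averaged 8.93 ± 0.28, 7.57 ± 0.31 and 6.87 ± 0.28 in numbers 1, 2 and 3, and Cldn11, of myelin tight junctions, 9.93 ± 0.19, 9.01 ± 0.10 and 8.54 ± 0.17. The 12 genes averaged 8.31 to 8.35 in the arrays of number 1, 7.64 to 7.85 in number 2 and 7.38 to 7.67 in number 3. Astrocyte markers (14 genes) averaged 8.69 to 8.92, 7.86 to 8.73 and 8.25 to 9.63. Within number 3 the eGFP array had 8.25, the β4e array 8.66, the β4a array 9.36 and the β4b array 9.63, a rising order also seen there for Sparc and for Igfbp2. Of the 14, 4 were higher and 1 lower in number 1 than in number 2, 3 and 2 against number 3, and 0 and 4 between numbers 2 and 3. For 1 minus 2 and 1 minus 3 these counts are near or under the shares of all probe sets. For 2 minus 3 those shares were 16.7% higher and 15.7% lower. Gja1, the gap junction gene of astrocytes, averaged 8.40 ± 0.17, 6.91 ± 1.10 and 8.45 ± 0.70 in numbers 1, 2 and 3, and Gdf10 of Bergmann glia 5.33 ± 0.17, 4.37 ± 0.44 and 6.11 ± 0.70. Microglia markers (15 genes) averaged 5.11 to 5.51, 5.08 to 5.48 and 5.41 to 5.68. Of the 11 above the filter, 1 was higher and 2 lower in number 1 than in number 2. Against number 3, and also between numbers 2 and 3, 0 were higher and 4 lower. The complement gene C1qa averaged 7.55 ± 0.10, 8.34 ± 0.36 and 9.14 ± 0.28, and the receptor gene Csf1r 6.07 ± 0.21, 5.99 ± 0.21 and 7.05 ± 0.23. For dividing cell markers, 9 of 13 genes were below 4 in all arrays. Of the 4 above the filter, 1 was higher in number 1 than in number 2 and 2 than in number 3, with 0 lower. Between numbers 2 and 3, 0 were higher and 3 lower. Rrm2, of nucleotide synthesis, averaged 6.72 ± 0.20, 5.01 ± 0.29 and 6.06 ± 0.49, and Top2a 4.06 ± 0.16, 3.59 ± 0.39 and 4.14 ± 0.23.

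The granule cell list, level on average, also held genes that differed. Of its 13 genes, 4 were higher and 3 lower in number 1 than in number 2, 3 and 2 against number 3, and 4 and 3 between numbers 2 and 3 by limma. Over all probe sets the shares were 29% and 24.2%, 28.5% and 19.8%, and 16.7% and 15.7%. The counts for 1 minus 2 and 1 minus 3 are near or under these shares, so they set granule cell genes apart in no way. The transcription factor genes Zic2 and Neurod2 had the widest ranges. Zic2 averaged 12.35 ± 0.14, 11.16 ± 0.25 and 10.65 ± 0.10 in numbers 1, 2 and 3, and Neurod2 8.87 ± 0.21, 7.63 ± 0.12 and 8.06 ± 0.17.

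The choroid plexus and ependymal list (11 genes, 5 below 4 in all arrays) averaged 4.37 to 5.09 in number 1, 3.55 to 4.12 in number 2 and 4.72 to 4.93 in number 3. Of its 5 genes above the filter, 4 were higher and 0 lower in number 1 than in number 2 by limma. Against number 3 these counts were 1 and 0, and between numbers 2 and 3 they were 0 and 3. Over all probe sets the shares were 29% and 24.2%, 28.5% and 19.8%, and 16.7% and 15.7%. Ttr, the transthyretin gene of choroid plexus epithelium, stood at 14.14, 12.61, 10.82 and 11.79 in number 1, at 4.00, 6.06, 7.97 and 10.27 in number 2, and at 14.35, 14.53, 14.34 and 14.25 in number 3. Kcnj13, a potassium channel gene of choroid plexus, averaged 3.54 ± 0.54, 2.86 ± 0.24 and 4.12 ± 0.40. The eGFP array was the lowest of number 2 and the highest of number 1 for both Ttr and Igfbp2. The part of choroid plexus genes in the values of Igfbp2, Igf2 and Postn was not tested.

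**Figure D4:**
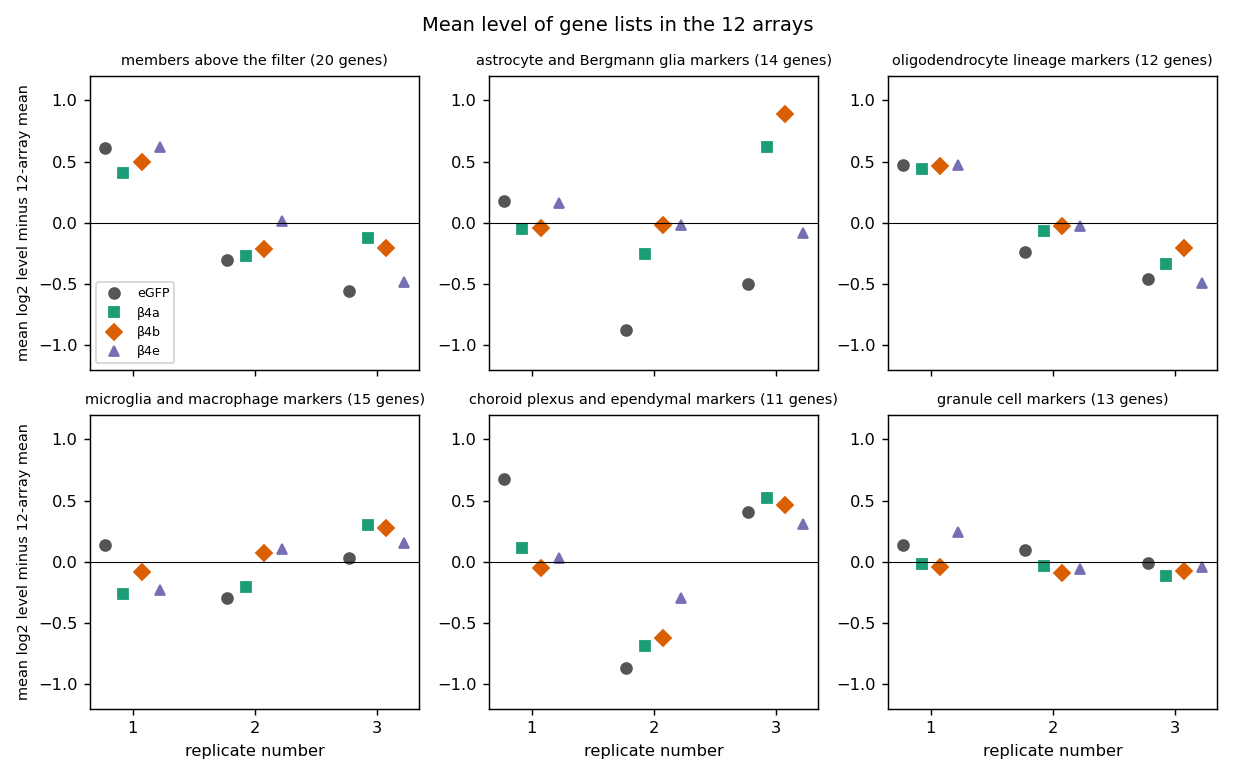
Mean log2 level of the listed genes in each array minus the mean over the 12 arrays (vertical axis), by replicate number (horizontal axis) and group (symbol). The 20 genes above the filter and the oligodendrocyte markers are highest in number 1, the choroid plexus list is lowest in number 2, and the granule cell markers stay close to 0.

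The splice variants were compared with eGFP to find whether putting back a β4 variant shifted these genes. With limma and Benjamini-Hochberg adjustment, 0 of the 20 genes passed for β4a, β4b or β4e, where 0% of all probe sets passed. At an unadjusted p under 0.05 there were 0, 1 and 0 genes, against 1.58%, 2.63% and 0.36% of all probe sets. With the replicate number as a block, 0 genes passed as well (0.013%, 0.013% and 0% of all probe sets), and 1, 1 and 2 had an unadjusted p under 0.05, against 15.3%, 19.3% and 5.54%. The median differences of the 20 genes from eGFP were 0.08, 0.09 and 0.13, and those of all probe sets 0.02, 0.03 and 0.01. The 3 comparisons share the eGFP arrays.

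These medians moved with single arrays. Without eGFP replicate 1 they were 0.32, 0.49 and 0.41, and without eGFP replicate 3 they were -0.09, -0.13 and -0.14. Leaving out the variant's own replicate 1 gave -0.16, -0.17 and -0.16. Within number 1 the median difference from eGFP was -0.12 for β4a, -0.09 for β4b and -0.03 for β4e. Within number 2 it was -0.0004, -0.05 and 0.20, and within number 3 it was 0.38, 0.19 and 0.06.

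Igf2 was the 1 gene lower than eGFP in all 9 differences within a number. These were -0.54, -0.16 and -0.13 for β4a in numbers 1 to 3, -0.66, -0.46 and -0.19 for β4b, and -0.59, -0.21 and -0.02 for β4e. None passed (limma adjusted p = 0.9999 for each, and 0.306, 0.119 and 0.892 with the block). All of these values lie between 3.60 and 4.48, at the edge of background. The 9 differences share the eGFP arrays, and the share of all probe sets lower in all 9 was not counted. A second Igf2 probe set, below 4 in all arrays, did not repeat the pattern. In number 2 it had 2.56 with β4a and 2.45 with eGFP.

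With β4e, 6 of 20 genes were higher than eGFP in all 3 numbers (Col5a2, Col4a2, Dcn, Sparc, Lox and Serpinf1), against 15.3% of all probe sets, and 2 were lower (Igf2 and Acta2), against 12.4%. The 6 include Col5a2, which was level with eGFP in number 1 (9.24e-05). For β4a the counts were 1 (Lox) and 2 (Lum and Igf2), against 19.1% and 16.4%. For β4b they were 1 (Col1a2) and 1 (Igf2), against 22.9% and 18.1%. Lox differed by 1.07, 0.46 and 0.10 with β4e, and Dcn by 1.75, 0.05 and 0.07, so that most of the Dcn difference came from number 1. Serpinf1 differed by 0.44, 0.94 and 0.19 and Sparc by 0.06, 0.59 and 0.44. With the block the limma adjusted p was 0.892 for Lox, 0.894 for Dcn, 0.925 for Serpinf1 and 0.905 for Sparc. The astrocyte list averaged 8.66 to 8.90 in the β4e arrays and 7.86 to 8.92 in the eGFP arrays, and its part in these values was not tested.

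Igfbp2 and Serpinf1 showed how far the numbers disagreed. Igfbp2 was lower than eGFP in number 1 (-1.16 with β4a, -0.95 with β4b, -1.07 with β4e), higher in number 2 (1.66, 2.12 and 2.18) and higher in number 3 (1.44, 1.48 and 0.56). Serpinf1 differed by -0.60, 0.07 and 1.46 with β4a and by -0.40, 0.25 and 1.34 with β4b in numbers 1 to 3. Postn was 0.93 to 1.05 lower than eGFP in number 1 with every variant, and differed by -0.50 to 0.08 in the other numbers.

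**Figure D5:**
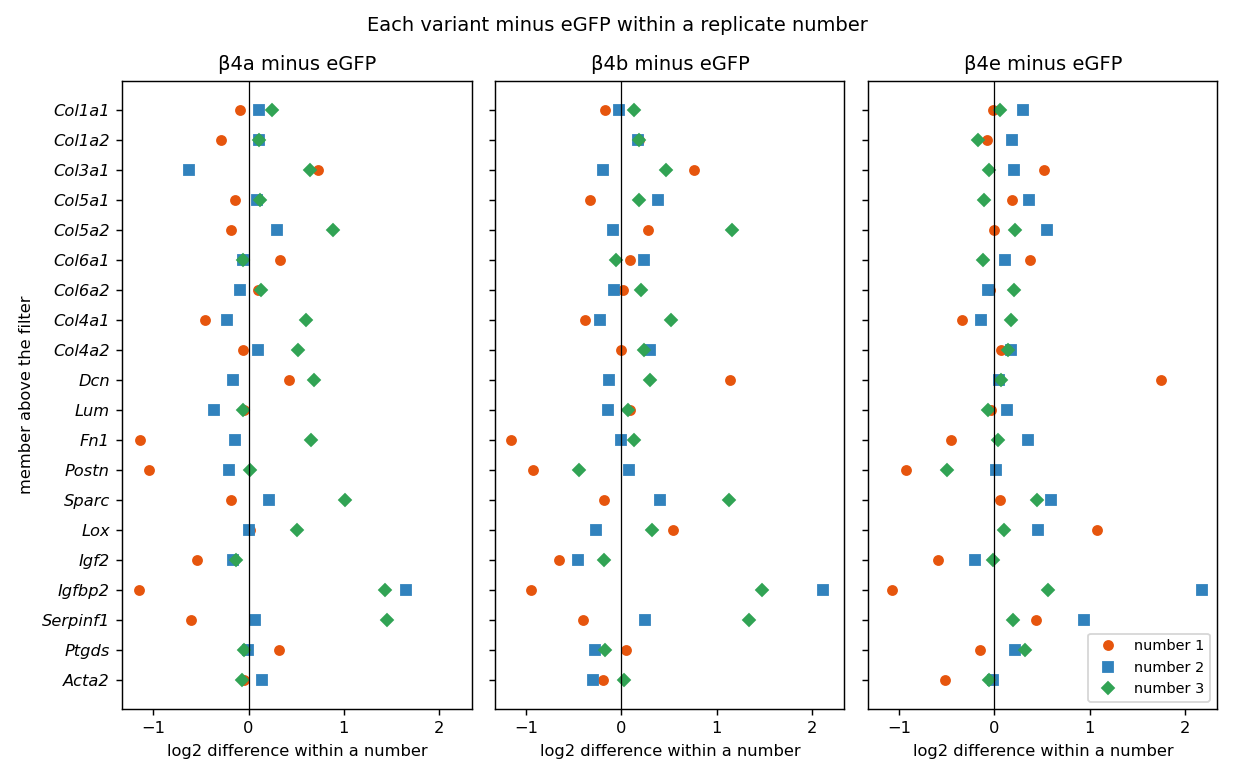
Log2 difference of each variant from eGFP within a replicate number (horizontal axis) for the 20 genes above the filter (rows), with a symbol per number. Most rows have points on both sides of 0, Igf2 has all 9 points to the left, and Igfbp2 has number 1 on the left and numbers 2 and 3 on the right.

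Between pairs of variants, 0 of the 20 genes passed for β4a against β4b, β4a against β4e or β4b against β4e by limma (0% of all probe sets). At an unadjusted p under 0.05 there were 0 in each, against 0.243%, 0.664% and 0.759% of all probe sets, and also 0 in each with the block, against 2.69%, 6.33% and 7.11%. Among the further lists 0 genes passed for any variant against eGFP, with or without the block. With 3 arrays a group, a p that misses the threshold does not show that the groups were alike. The SE of a difference from eGFP without the block was 1.77 for Dcn, 1.43 for Lox and 0.90 for Col3a1. Without the block, the spread between replicate numbers counts as error. That spread held 95.6%, 96.1% and 90.9% of the sum of squares of these genes, so the block gave smaller SEs.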

How the data were processed

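Expression was measured on 12 Affymetrix mouse 3′ arrays, 1 per RNA sample (500 ng), and the number of arrays limits the precision. Values are log2 intensities that the authors made with GCRMA, per the submitters' processing notes (version not given in the sources used here), and were used as deposited. GCRMA normalises between arrays and shrinks values near background, so differences involving values below 4 are not exact. The 64 AFFX controls among 45101 probe sets were not used. GEO's platform annotation gave 1 symbol to 34945, several to 932 and none to 9160. Promoters are from RefSeq (GRCm38.p6).

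Probe sets above 4 in at least 3 arrays (23044) were tested with limma 3.58.1 in R 4.3.3 (lmFit, eBayes, Benjamini-Hochberg, threshold 0.05). Variants were compared in a model of the 4 groups (8 residual degrees of freedom), and replicate numbers in a model with group and number (6). The code was tested on simulated data. Replicate numbers paired the arrays in the data (18 of 18 pairs positive, 0.699 to 0.884; at most 0.146 otherwise), so blocked values are given where they bear on a call. Nothing in the labels says that replicates are separate cultures, so p-values may measure technical spread.

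The genes and lists were chosen with earlier results of these data known. Values per array are given for the 10 genes with the widest range of number means and, above the filter, the 3 per role with the highest mean; genes below it are given by their range or calls. From each further list the 2 genes with the widest range are named. Slc16a11 and Wnt6 were named besides, after their values were seen, and Gabra6 as a check of the label. Alternatives tried were the block (or no group factor), 2 other filters, quantile normalization, median centring, a trended robust variance, the mean of a gene's probe sets and each array left out.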

Additional observations from a re-analysis of the deposited data

How the results depend on the processing

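Counts of genes passing for a variant against eGFP or another variant stayed at 0 under every alternative run, the replicate block included, in which the median differences were also 0.08, 0.09 and 0.13. Between replicate numbers the counts were 13, 14 and 12 (number 1 minus 2, 1 minus 3, 2 minus 3). They were 8, 7 and 5 with the stricter filter (mean above 5), which leaves 12 genes to test, and 11 to 14, 12 to 16 and 9 to 12 under the other alternatives that kept all arrays. Leaving out 1 array gave 11 to 13, 13 to 15 and 6 to 12. The medians of 0.56 and 0.61 (1 minus 2 and 1 minus 3) were 0.32 and 0.30 with no filter, which adds genes near background, and 0.94 and 0.89 with the stricter filter. Leaving out 1 array gave 0.45 to 0.74, 0.60 to 0.69 and, for 2 minus 3, -0.10 to 0.05. The variant medians were 0.27 (β4b) and 0.24 (β4e) with the stricter filter and ran from -0.16 to 0.32, -0.17 to 0.49 and -0.16 to 0.41 for β4a, β4b and β4e when 1 array was left out. Single genes were followed between replicate numbers, and Igf2 also against eGFP, under each alternative. Of these values, 64 lost a call, 16 gained one and 0 reversed. The other 1063 stayed as they were, called or not called. Signals near background, below 4, limit what can be said of Col1a1, Lum, Igf2 and all endothelial genes.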
